A study of Mus musculus with 6 samples.

Results

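The chemokine receptors of myeloid cells are a set of 9 genes, *Ccr1*, *Ccr2*, *Ccr7*, *Ccr9*, *Ccrl2*, *Cx3cr1*, *Cxcr2*, *Cxcr3* and *Cxcr4*. They were taken by symbol from the 41128 genes in the expression table, with earlier results of these data known. Of the 9, 5 were among the 9522 genes that were expressed highly enough to be tested. RNA from bone marrow (BM) leukemia cells of 6 C57BL/6 mice with acute myeloid leukemia (AML) was sequenced, 1 library per mouse. The comparison asks how coexpression of IRX3, an Iroquois homeodomain transcription factor, alters the transcripts of a leukemia initiated by *Hoxa9*. The *Hoxa9*/MTV cohort (mice 1.1, 1.2 and 1.4) carried retroviral *Hoxa9* and the empty vector MTV, and the *Hoxa9*/*IRX3* cohort (mice 3.2, 3.3 and 3.5) carried retroviral *Hoxa9* and retroviral *IRX3*, so that both cohorts express *Hoxa9* from a vector. Both were made by transducing KIT+ BM cells of female CD45.1+ donors (B6.SJL-Ptprca Pepcb/BoyJ) aged 6 to 12 weeks. After drug selection, the cells were transplanted into irradiated female CD45.2+ C57BL/6 recipients, also aged 6 to 12 weeks. When the animals were sick, thawed BM was flow sorted for CD45.1+ KIT+Gr1+ cells, so the introduced genes are expressed from retroviral vectors and the sort sets which cells were read. Ages at death of the mice sequenced are not given in the sources used here. The paper reports a later onset of AML in *Hoxa9*/*IRX3* than in *Hoxa9*/MTV recipients. The part of time after transplantation in the differences below was not tested.

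Chemokine receptors are seven-transmembrane proteins that couple to Gi proteins and steer leukocytes along gradients of secreted chemokines. In the myeloid lineage, CXCR4 and its ligand CXCL12 hold immature cells in the BM, CCR2 lets Ly6C-high monocytes leave the BM in response to CCL2 and CCL7, and CXCR2 drives the release of mature neutrophils. CCR1 responds to CCL3 and related chemokines, CX3CR1 marks patrolling monocytes and macrophages, and CCR7, CCR9 and CXCR3 are best known from lymphocytes and dendritic cells. CCRL2 is an atypical receptor that binds chemerin without driving migration.

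*Ccr2* was the receptor gene that differed between the cohorts. Its level in *Hoxa9*/*IRX3* leukemias was 4.44-fold below that in *Hoxa9*/MTV leukemias by mean RPKM, and the cohorts of 3 mice did not overlap. *Ccr1*, its neighbor on chromosome 9, and *Cxcr4*, the most highly expressed of the set, had lower means in *Hoxa9*/*IRX3* mice, but their cohorts overlapped and neither passed the test. *Cxcr2* and *Ccrl2* varied more among the *Hoxa9*/*IRX3* mice than between the cohorts. *Ccr7*, *Ccr9* and *Cxcr3* had few or no reads, and the value for *Cx3cr1* could not be separated from that of other genes.

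The 300 bases around the start of *Ccr2*, *Ccr1* and *Cxcr4* are shown because *Ccr2* was the gene that changed, *Ccr1* is the adjacent member of the set and *Cxcr4* is the most abundant. The sequences, from RefSeq on GRCm38.p6, run from 250 bases before to 50 bases after the start of the transcript, 5′ to 3′ on the strand of the gene. They lie at chr9:124101933-124102232 (plus strand) for *Ccr2*, chr9:123968643-123968942 (minus strand) for *Ccr1* and chr1:128592250-128592549 (minus strand) for *Cxcr4*. Capitals mark matches to GAGGAA, the core of the site of the myeloid factor PU.1, and to TTNNGNAA, letters of the C/EBP site, each searched on both strands. The C/EBP matches of *Ccr2* and *Cxcr4* lie on the opposite strand, so that the capitals show the reverse complement of these letters. 
Ccr2: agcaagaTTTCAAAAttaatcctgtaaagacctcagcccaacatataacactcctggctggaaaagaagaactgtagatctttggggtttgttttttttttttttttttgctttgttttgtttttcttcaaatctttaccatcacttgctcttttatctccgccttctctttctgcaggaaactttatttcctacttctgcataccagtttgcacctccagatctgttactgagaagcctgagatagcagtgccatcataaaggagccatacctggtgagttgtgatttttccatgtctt
Ccr1: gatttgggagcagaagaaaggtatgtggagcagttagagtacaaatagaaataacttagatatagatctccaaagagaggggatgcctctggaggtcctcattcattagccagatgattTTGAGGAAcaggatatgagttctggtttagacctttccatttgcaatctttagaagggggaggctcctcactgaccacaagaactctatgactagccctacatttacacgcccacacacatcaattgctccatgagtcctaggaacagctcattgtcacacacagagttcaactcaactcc
Cxcr4: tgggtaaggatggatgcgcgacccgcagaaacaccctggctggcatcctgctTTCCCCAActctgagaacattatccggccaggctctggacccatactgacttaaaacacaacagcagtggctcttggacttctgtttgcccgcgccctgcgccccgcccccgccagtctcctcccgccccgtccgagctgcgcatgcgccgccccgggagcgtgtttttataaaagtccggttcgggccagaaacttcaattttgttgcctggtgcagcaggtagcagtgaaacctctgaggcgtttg
The *Ccr2* window held 1 C/EBP match and no PU.1 match. The *Ccr1* window held 1 match to each, which overlap, and the *Cxcr4* window held 1 C/EBP match. Of 32851 RefSeq promoters of the same length, 40.7% held the C/EBP letters and 28.3% the PU.1 letters. *Cxcr4* also held TATAAA, not capitalised, which occurs in 13.6% of those promoters. A match describes the letters only. Of the 9 genes, 8 had a promoter in the RefSeq table, and *Ccr7* did not.

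Expression is given as RPKM, the reads of a gene divided by its length in kilobases and by the size of the library, which the authors computed over the whole span with introns. Libraries rested on 7979246 to 9803621 reads, recovered from the steps between low RPKM values. The introduced genes were read as a check of the labels. For *Irx3*, every *Hoxa9*/MTV mouse was at 0, and mice 3.2, 3.3 and 3.5 had 15.1, 0.421 and 0.148 RPKM, although the introduced cDNA is human and only reads that align to the mouse gene are seen. *Hoxa9* ranged from 174 to 363 RPKM in *Hoxa9*/MTV mice and from 154 to 242 RPKM in *Hoxa9*/*IRX3* mice. Genes over 0.5 RPKM in at least 1 mouse were compared with limma on log2(RPKM + 0.5), and genes with an adjusted p under 0.05 that differed 2-fold or more on that scale were called. Of the 9522 genes, 2.03% were called lower and 1.1% higher in *Hoxa9*/*IRX3* leukemias, and their median log2 change was -0.06.

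**Figure D1:**
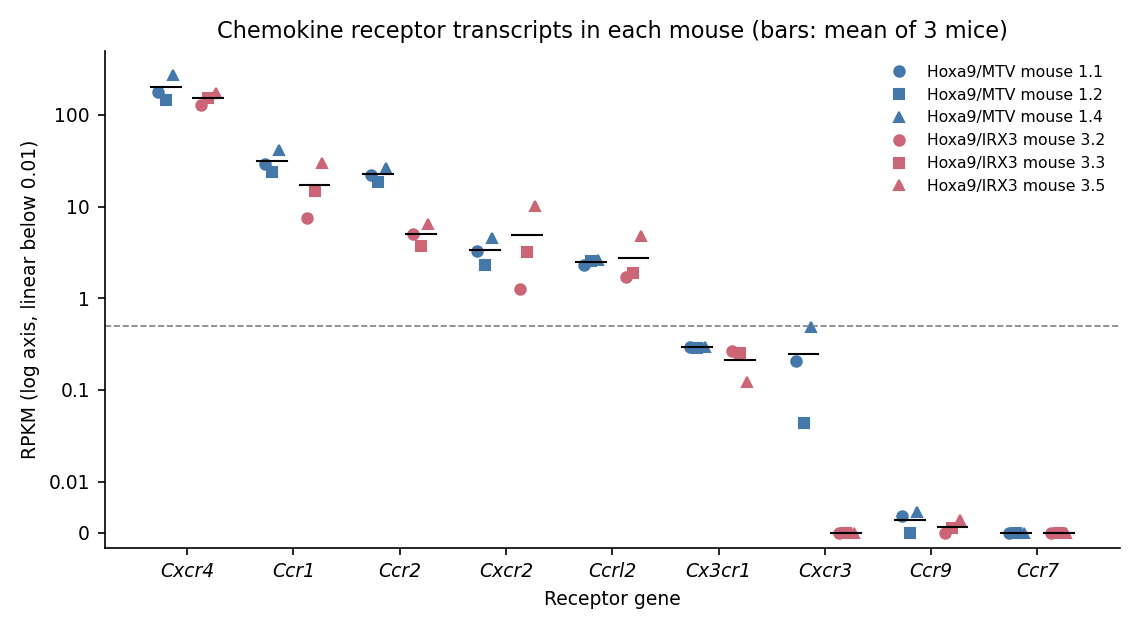
RPKM of the 9 receptor genes in each mouse, on a log axis that is linear below 0.01, with black bars for the mean of the 3 mice of a cohort and a dashed line at the 0.5 RPKM filter. The 3 *Hoxa9*/*IRX3* mice sit between 3.69 and 6.48 RPKM for *Ccr2*, below the 18.7 to 26.3 RPKM of *Hoxa9*/MTV mice, while the cohorts overlap for *Cxcr4*, *Ccr1*, *Cxcr2* and *Ccrl2*.

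CCR2 is the receptor through which classical monocytes leave the marrow. *Ccr2* (ENSMUSG00000049103) lies at chr9:124101950-124113557 on the plus strand of GRCm38. It was read at 22.3, 18.7 and 26.3 RPKM in *Hoxa9*/MTV mice 1.1, 1.2 and 1.4 (2293, 1802 and 2954 reads) and at 4.99, 3.69 and 6.48 RPKM in *Hoxa9*/*IRX3* mice 3.2, 3.3 and 3.5 (513, 420 and 600 reads). Every *Hoxa9*/*IRX3* mouse was below every *Hoxa9*/MTV mouse, and the read numbers are large enough that counting error is small beside the spread between mice. The means were 22.4 ± 3.81 RPKM (SD, n = 3) and 5.05 ± 1.39 RPKM (SD, n = 3). On log2(RPKM + 0.5) the change was -2.06 (SE 0.23, 95% interval -2.61 to -1.52, limma adjusted p = 0.00843). *Ccr2* was the 1 of the 5 tested receptors that was called, beside 2.03% of all tested genes called lower. Cohorts that do not overlap, with *Hoxa9*/*IRX3* lower, were found for 21.6% of all tested genes. The call did not hold without mouse 1.1 (log2 change -2.06, limma adjusted p = 0.0528) or without mouse 1.4 (-1.95, limma adjusted p = 0.0515), and the size of the change was nearly the same. In bulk RNA, fewer cells that express a receptor and less RNA per cell cannot be told apart.

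**Figure D2:**
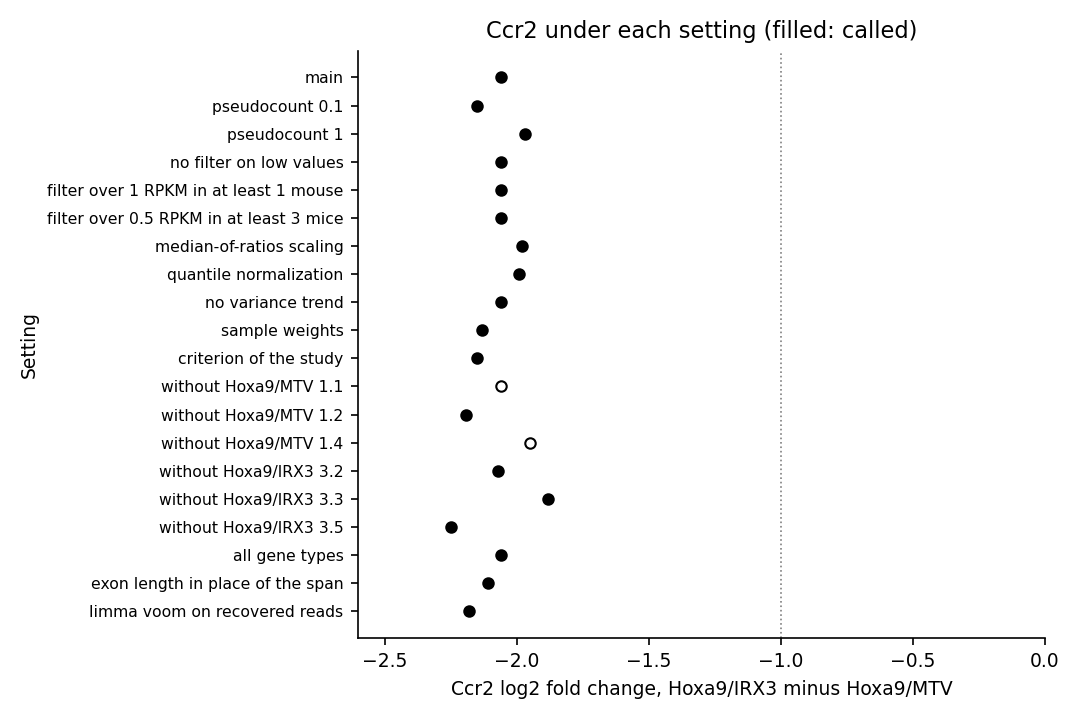
Log2 fold change of *Ccr2*, *Hoxa9*/*IRX3* minus *Hoxa9*/MTV, under the reported setting and 19 alternatives, filled where called and with a dotted line at a 2-fold fall. All values lie between -2.25 and -1.88, and the call was lost without mouse 1.1 or 1.4.

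CCR1 is the inflammatory receptor for CCL3, CCL5 and related ligands. *Ccr1* (ENSMUSG00000025804) lies at chr9:123962124-123968692 on the minus strand. It was read at 28.8, 23.6 and 41.5 RPKM in *Hoxa9*/MTV mice 1.1, 1.2 and 1.4, and at 7.58, 14.8 and 29.6 RPKM in *Hoxa9*/*IRX3* mice 3.2, 3.3 and 3.5. Mouse 3.5 lay within the *Hoxa9*/MTV range and the other two lay below it. The log2 change was -0.997 (SE 0.48, 95% interval -2.14 to 0.15, limma adjusted p = 0.254), so the interval holds both no change and a fall as large as that of *Ccr2*. Whether *Ccr2* fell more than *Ccr1* can be read within each mouse. *Ccr2* was 77.6%, 79.3% and 63.3% of *Ccr1* by RPKM in *Hoxa9*/MTV mice 1.1, 1.2 and 1.4, and 65.8%, 24.9% and 21.9% in mice 3.2, 3.3 and 3.5. Mouse 3.2 was within the *Hoxa9*/MTV range and the other two lay below it. The means were 73.4% ± 8.77 (SD, n = 3) and 37.5% ± 24.5 (SD, n = 3), and the difference was not significant (two-sided exact permutation test, p = 0.2, 0.4 after Benjamini-Hochberg adjustment over 8 ratios), where 3 mice against 3 cannot give a p below 0.1. *Ccr1* has a close paralog on the same chromosome, *Ccr1l1*, which was read at no more than 0.142 RPKM in any mouse.

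CXCR4 is the retention receptor of the marrow. *Cxcr4* (ENSMUSG00000045382) lies at chr1:128588199-128592293 on the minus strand. It was read at 179, 145 and 272 RPKM in mice 1.1, 1.2 and 1.4, and at 129, 152 and 174 RPKM in mice 3.2, 3.3 and 3.5. The cohorts overlapped, and the highest value was that of *Hoxa9*/MTV mouse 1.4. The log2 change was -0.35 (SE 0.26, 95% interval -0.96 to 0.26, limma adjusted p = 0.436), an interval whose lower bound lies just short of a 2-fold fall. Measured against *Cxcr4* in the same library, *Ccr2* was 12.5%, 12.9% and 9.67% by RPKM in *Hoxa9*/MTV mice 1.1, 1.2 and 1.4, and 3.86%, 2.43% and 3.73% in *Hoxa9*/*IRX3* mice 3.2, 3.3 and 3.5. This ratio, which does not depend on how libraries are scaled, did not overlap between cohorts (two-sided exact permutation test, p = 0.1, the smallest that 3 mice against 3 allow, and 0.267 after Benjamini-Hochberg adjustment over the 8 ratios).

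CXCR2 is the receptor for the neutrophil-attracting chemokines. *Cxcr2* (ENSMUSG00000026180) lies at chr1:74153989-74161246 on the plus strand. It was read at 3.29, 2.31 and 4.57 RPKM in *Hoxa9*/MTV mice 1.1, 1.2 and 1.4, and at 1.28, 3.22 and 10.2 RPKM in *Hoxa9*/*IRX3* mice 3.2, 3.3 and 3.5. The *Hoxa9*/*IRX3* cohort held both the lowest and the highest value. The log2 change was 0.13 (SE 0.62, 95% interval -1.36 to 1.62, limma adjusted p = 0.919), so a change of more than 2-fold in either direction lies inside the interval. The sign rests on mouse 3.5, without which the log2 change was -0.56 (limma adjusted p = 0.426). *Cxcr2* was 14.7%, 12.3% and 17.4% of *Ccr2* by RPKM in *Hoxa9*/MTV mice and 25.6%, 87.2% and 157% in mice 3.2, 3.3 and 3.5. All 3 *Hoxa9*/*IRX3* mice thus had more *Cxcr2* relative to *Ccr2* than any *Hoxa9*/MTV mouse (two-sided exact permutation test, p = 0.1, 0.267 after Benjamini-Hochberg adjustment).

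*Ccrl2*, the atypical receptor, lies at chr9:111054486-111057519 on the minus strand (ENSMUSG00000043953). It was read at 2.32, 2.57 and 2.63 RPKM in *Hoxa9*/MTV mice 1.1, 1.2 and 1.4, and at 1.71, 1.88 and 4.73 RPKM in *Hoxa9*/*IRX3* mice 3.2, 3.3 and 3.5. Mice 3.2 and 3.3 lay below the narrow *Hoxa9*/MTV range and mouse 3.5 above it. The log2 change was 0.01 (SE 0.32, 95% interval -0.77 to 0.79, limma adjusted p = 0.990), and -0.39 without mouse 3.5 (limma adjusted p = 0.104). These values rest on 37 to 92 reads per mouse, the fewest of the tested receptors. Mouse 3.5 had the highest value of its cohort for all 5 tested receptors.

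**Figure D3:**
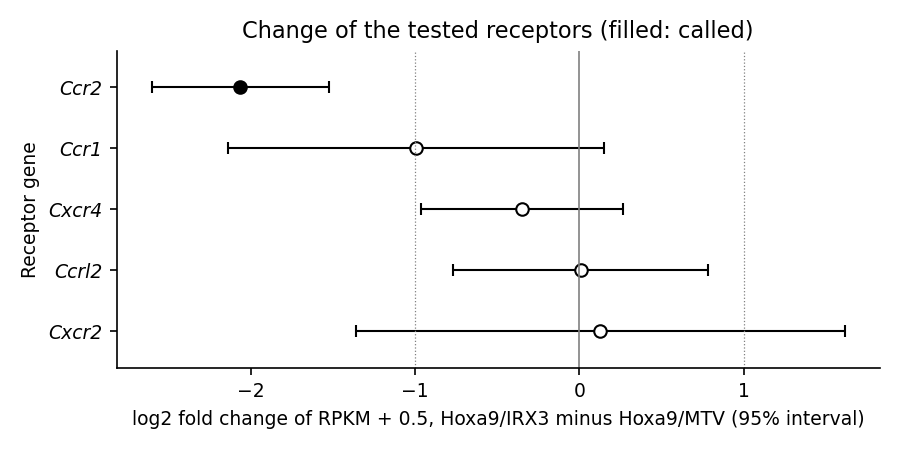
Log2 fold change of the 5 tested receptors on log2(RPKM + 0.5), *Hoxa9*/*IRX3* minus *Hoxa9*/MTV, with 95% intervals from limma, filled where called and with dotted lines at 2-fold. The *Ccr2* interval, -2.61 to -1.52, lies wholly beyond 2-fold, and the other 4 intervals include 0.

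The remaining 4 receptors did not reach 0.5 RPKM in any mouse and were not tested. *Ccr7* (chr11:99144196-99155077, minus strand), the lymph node homing receptor of dendritic and T cells, had 0 reads in all 6 mice, which allows up to 0.0281 to 0.0346 RPKM at 3 reads in each library. *Ccr9* (chr9:123678439-123784330, plus strand), the gut homing receptor, had 3, 0 and 4 reads in mice 1.1, 1.2 and 1.4, and 0, 1 and 2 reads in mice 3.2, 3.3 and 3.5. These are too few for a difference to be detectable at this depth. *Cxcr3* (chrX:101731535-101734269, minus strand), the receptor for interferon-induced chemokines, had 5, 1 and 13 reads in *Hoxa9*/MTV mice 1.1, 1.2 and 1.4 and 0 in all 3 *Hoxa9*/*IRX3* mice. Its mean was 1.99-fold lower in *Hoxa9*/*IRX3* mice when each of those libraries is set at the floor of 3 reads. This covers counting error in those libraries only, since the *Hoxa9*/MTV reads were taken as observed. Mouse 1.4 gave most of the reads, and without it the value was 1.01-fold. With no filter on low values limma gave an adjusted p = 0.251 for *Cxcr3*.

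*Cx3cr1* (ENSMUSG00000052336, chr9:119901616-120069879, minus strand) was listed at 0.290, 0.287 and 0.297 RPKM in *Hoxa9*/MTV mice 1.1, 1.2 and 1.4, and at 0.263, 0.253 and 0.123 RPKM in *Hoxa9*/*IRX3* mice 3.2, 3.3 and 3.5. The cohorts do not overlap, but the value cannot be read as the level of this receptor. The length implied by its values is 166668 bases, close to the annotated span of 168264 bases, which contains the genes *Gorasp1* and *Csrnp1* on the same strand. In this table the reads of a gene inside an intron of another gene on the same strand appear mostly to be counted for both. The host had at least 0.9 times the reads of the inner gene in 259 of 264 such pairs, against 197 of 363 pairs on opposite strands. Reads of *Gorasp1* equalled 27.1%, 32.7% and 34.0% of the *Cx3cr1* reads in *Hoxa9*/MTV mice and 62.0%, 63.9% and 49.7% in *Hoxa9*/*IRX3* mice. Taking these away would leave 312, 267 and 316 reads in mice 1.1, 1.2 and 1.4, and 148, 149 and 82 in mice 3.2, 3.3 and 3.5. *Csrnp1* was listed at 2.94, 2.21 and 1.07 RPKM in mice 1.4, 3.2 and 3.5. Over its annotated span that is more reads than would be left there, so the reads of both genes cannot all have been counted for *Cx3cr1*. The part of either gene in the value is not settled, and no change is given for *Cx3cr1*.

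To compare levels between receptors, the recovered reads were divided by the exon length of each gene. On this scale, the RPKM of exons, *Cxcr4* had 450.0 ± 149 (SD, n = 3), *Ccr1* 72.6 ± 21.4, *Ccr2* 38.5 ± 6.54, *Cxcr2* 8.07 ± 2.71 and *Ccrl2* 2.35 ± 0.154 in *Hoxa9*/MTV mice. No neighbors in this order overlapped among the 3 mice. In *Hoxa9*/*IRX3* mice the levels were 343 ± 50.01 for *Cxcr4*, 40.2 ± 26.0 for *Ccr1*, 11.6 ± 11.1 for *Cxcr2*, 8.68 ± 2.39 for *Ccr2* and 2.60 ± 1.59 for *Ccrl2*. *Cxcr2* lay above *Ccr2* in mice 3.3 and 3.5 and below it in mouse 3.2, so the order of those genes is not fixed. By RPKM over the whole span, *Cxcr2* was below *Ccr2* in mouse 3.3 as well (3.22 against 3.69). The ranges of *Ccr1* and *Cxcr2* and those of *Cxcr2* and *Ccrl2* also overlapped. *Cxcr4* made up 77.6% to 79.9% of the summed level of the 5 receptors in *Hoxa9*/MTV mice and 90.5%, 87.3% and 78.4% in mice 3.2, 3.3 and 3.5. *Ccr2* made up 7.37%, 7.58% and 5.86% in *Hoxa9*/MTV mice and 2.65%, 1.61% and 2.22% in *Hoxa9*/*IRX3* mice, without overlap. In mouse 3.5 the share of *Ccr1*, 13.7%, was as high as in *Hoxa9*/MTV mice, while that of *Ccr2* was not.

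**Figure D4:**
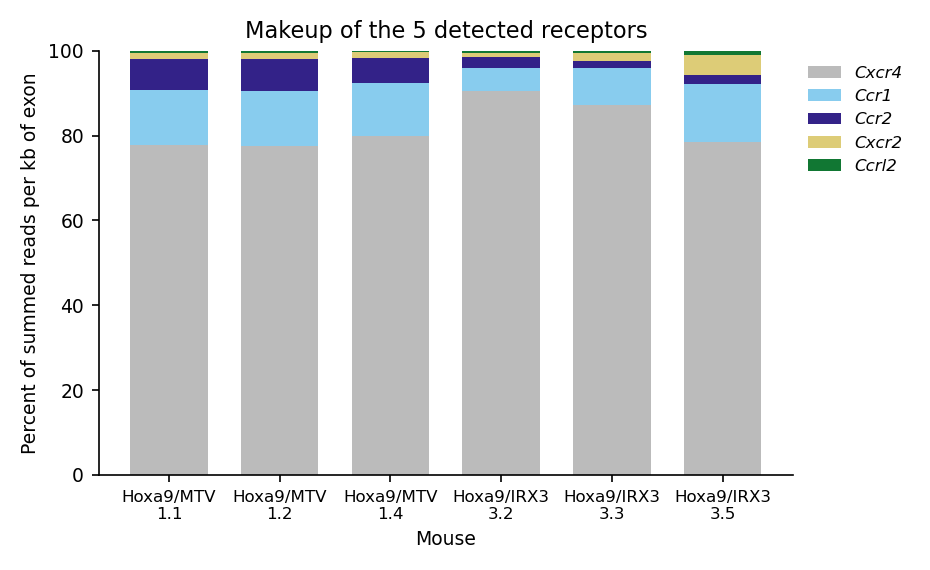
Percent of the summed reads per kilobase of exon of the 5 tested receptors that each contributes in every mouse, as stacked bars to 100%. *Cxcr4* takes between 77.6% and 90.5%, and *Ccr2* falls from 5.86% to 7.58% in *Hoxa9*/MTV mice to 1.61% to 2.65% in *Hoxa9*/*IRX3* mice.

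Other chemokine receptors were low or absent in these cells. Of 18 further chemokine and atypical receptor genes, 7 were listed at 0 in all mice and 1 was tested. This was *Ccr4*, a receptor of T cells, for which the 3 *Hoxa9*/MTV mice were listed at 0 and mice 3.2, 3.3 and 3.5 had 1.97, 0 and 0.201 RPKM, and it was not called (log2 change 0.93, limma adjusted p = 0.351). Among 16 other receptors for chemoattractants and myeloid growth factors (formyl peptide, complement, leukotriene and sphingosine phosphate receptors among them), 11 were tested, 1 was called lower and 0 higher, and the median log2 change was -0.13. Of all tested genes, 2.03% were called lower. At an unadjusted p under 0.05 limma gave 3, and 2 were lower without overlap, beside 21.6% of all tested genes. *S1pr4* was lower without overlap but not called (log2 change -1.37, limma adjusted p = 0.0846). The gene called was *Gpr183*, the oxysterol receptor that positions B cells and dendritic cells. It fell from 2.29, 0.861 and 1.45 RPKM in mice 1.1, 1.2 and 1.4 to 0.0702, 0.0317 and 0.166 RPKM in mice 3.2, 3.3 and 3.5 (limma adjusted p = 0.0214), and the call did not hold without mouse 1.1 (limma adjusted p = 0.0650) or mouse 1.4 (limma adjusted p = 0.104).

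Few of the ligands of the 9 receptors were read in the leukemia cells. Of 27 ligand genes in the table, 12 were listed at 0 in all mice, 8 were tested and 0 were called by limma, with a median log2 change of -0.66. At an unadjusted p under 0.05 there were 2, *Ccl3* and *Cxcl10*, and limma voom on the recovered reads called 0. *Cxcl10*, an interferon-induced ligand of CXCR3, was at 0.0459 to 0.107 RPKM in *Hoxa9*/MTV mice and 0.351, 2.76 and 2.17 RPKM in mice 3.2, 3.3 and 3.5. The cohorts did not overlap for it (log2 change 1.74, limma adjusted p = 0.0895), and without mouse 3.2 it was called higher (log2 change 2.34, limma adjusted p = 0.0059). Of the ligands of CCR2, *Ccl7* and *Ccl12* were listed at 0 in every mouse, as was *Ccl8*. *Ccl2*, another CCR2 ligand, was at 0.120, 0.384 and 1.10 RPKM in *Hoxa9*/MTV mice and 0.120, 0 and 0.0666 RPKM in mice 3.2, 3.3 and 3.5 (log2 change -0.77, limma adjusted p = 0.229). *Ccl9*, a ligand of CCR1, was the most abundant ligand transcript in 5 of the 6 mice, at 106, 121 and 107 RPKM in *Hoxa9*/MTV mice and 48.0, 31.3 and 139 RPKM in mice 3.2, 3.3 and 3.5 (log2 change -0.90, limma adjusted p = 0.325, and called lower without mouse 3.5 at limma adjusted p = 0.0285). *Cxcl12*, the ligand of CXCR4 made by marrow stroma, was at no more than 0.366 RPKM in any mouse.

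Signaling downstream of the receptors was read from 28 genes for G protein subunits and effectors, of which 25 were tested, 2 were called lower and 0 higher, with a median log2 change of -0.18. Both that were called encode G protein gamma subunits. At an unadjusted p under 0.05 there were 6, and 8 were lower and 1 higher without overlap between cohorts. Of all tested genes, 2.03% were called lower and 21.6% were lower without overlap. *Prex1* (log2 change -0.90, limma adjusted p = 0.0498) missed only the 2-fold limit, and *Pik3r6* (-0.97, limma adjusted p = 0.0587) missed both limits. *Gng2* was read at 1.41, 1.65 and 1.504 RPKM in *Hoxa9*/MTV mice and 0.0290, 0.117 and 0.0787 RPKM in *Hoxa9*/*IRX3* mice (log2 change -1.81, limma adjusted p = 0.00298). *Gng10* was read at 12.9, 13.5 and 15.5 RPKM and at 6.77, 4.68 and 7.98 RPKM (log2 change -1.08, limma adjusted p = 0.0369), a call that did not hold without any 1 of the *Hoxa9*/MTV mice (limma adjusted p = 0.121 to 0.153). It was also lost without mouse 3.3 (log2 change -0.88, under 2-fold), with no filter (limma adjusted p = 0.0637), with all gene types (0.0611), with median-of-ratios scaling (0.0588) and, for its size, with quantile normalization. *Gng2* was called without each mouse in turn. Of 16 genes for desensitisation of the receptors (receptor kinases, arrestins and RGS proteins), 10 were tested and 0 were called by limma in either direction, with a median log2 change of -0.36, 3 of 10 at an unadjusted p under 0.05 and 0 called by limma voom. These medians stand beside -0.06 for all tested genes.

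The sorted population was checked against its markers. The antigens of the Gr1 antibody are encoded by *Ly6g* and *Ly6c2*, and *Ly6c2* was read at 413 to 479 RPKM in *Hoxa9*/MTV mice and 414, 790 and 844 RPKM in mice 3.2, 3.3 and 3.5 (log2 change 0.56, limma adjusted p = 0.278). *Ly6g* was called higher, from 0.145, 0.124 and 0.0532 RPKM to 1.42, 0.682 and 1.13 RPKM (log2 change 1.35, limma adjusted p = 0.0205), and not without any 1 of the *Hoxa9*/MTV mice (limma adjusted p = 0.0828 to 0.103) or at a pseudocount of 1 (log2 change 0.89). *Kit* and *Ptprc*, which encodes CD45, were read at 1.63 to 3.12 and 1.53 to 2.09 RPKM over all mice and were not called. Relative to *Ly6c2*, *Ccr2* was 5.41%, 3.91% and 5.98% by RPKM in *Hoxa9*/MTV mice and 1.20%, 0.467% and 0.768% in mice 3.2, 3.3 and 3.5. The two-sided exact permutation test gave p = 0.1, and 0.267 after Benjamini-Hochberg adjustment over the 8 ratios. Monocytes of normal marrow express both genes, and here *Ccr2* was low in *Hoxa9*/*IRX3* mice while *Ly6c2* was not.

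Some markers of monocytes and macrophages fell together with *Ccr2*. Of 13 such genes, 11 were tested, 3 were called lower and 0 higher, beside 2.03% and 1.1% of all tested genes, and the median log2 change was -1.33. The genes that fell were *Cd68*, a lysosomal glycoprotein of macrophages (67.9, 87.3 and 80.1 RPKM in *Hoxa9*/MTV mice, 13.1, 18.3 and 6.71 RPKM in *Hoxa9*/*IRX3* mice, limma adjusted p = 0.0135), *Klf4*, a transcription factor of monocyte differentiation (9.15, 5.02 and 11.0 RPKM against 2.16, 1.76 and 0.471 RPKM, limma adjusted p = 0.0391), and *Ms4a6c* (28.4, 22.6 and 32.2 RPKM against 0.941, 0.199 and 1.26 RPKM, limma adjusted p = 0.00298). The *Cd68* call did not hold without any 1 of the *Hoxa9*/MTV mice (limma adjusted p = 0.0559 to 0.0763). The *Klf4* call did not hold without those mice (0.0951 to 0.153) or without mouse 3.3 (0.0519), nor at a pseudocount of 0.1 (0.0532), with no filter (0.0847), with all gene types (0.0667) or by limma voom (0.0586), whereas *Ms4a6c* was called without each mouse in turn.

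*Ccr2* did not follow all monocyte genes. *Irf8* and *Csf1r*, chosen after their values were seen, encode a transcription factor and the growth factor receptor of the monocyte lineage. *Csf1r* was at 5.82, 4.77 and 5.94 RPKM in *Hoxa9*/MTV mice and 0.790, 6.43 and 0.552 RPKM in mice 3.2, 3.3 and 3.5, and *Irf8* was at 39.6, 27.0 and 25.5 RPKM and 2.61, 63.1 and 2.98 RPKM. Mouse 3.3 had the highest level of both genes among all 6 mice and the lowest *Ccr2*. Relative to *Csf1r*, *Ccr2* was 384%, 392% and 443% by RPKM in *Hoxa9*/MTV mice 1.1, 1.2 and 1.4. In mice 3.2, 3.3 and 3.5 it was 631%, 57.4% and 1174%, so the cohorts overlapped (two-sided exact permutation test, p = 0.7, 0.8 after Benjamini-Hochberg adjustment over 8 ratios). Without mouse 3.3 both genes were called lower (limma adjusted p = 0.00406 for *Csf1r* and 0.00430 for *Irf8*), and with it neither was (0.233 and 0.367). The summed RPKM of the monocyte list was 588 to 650.0 in *Hoxa9*/MTV mice and 492, 895 and 871 in mice 3.2, 3.3 and 3.5, most of it *Ly6c2*. The part of a shift in monocytic cells in the level of *Ccr2* was not tested.

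**Figure D5:**
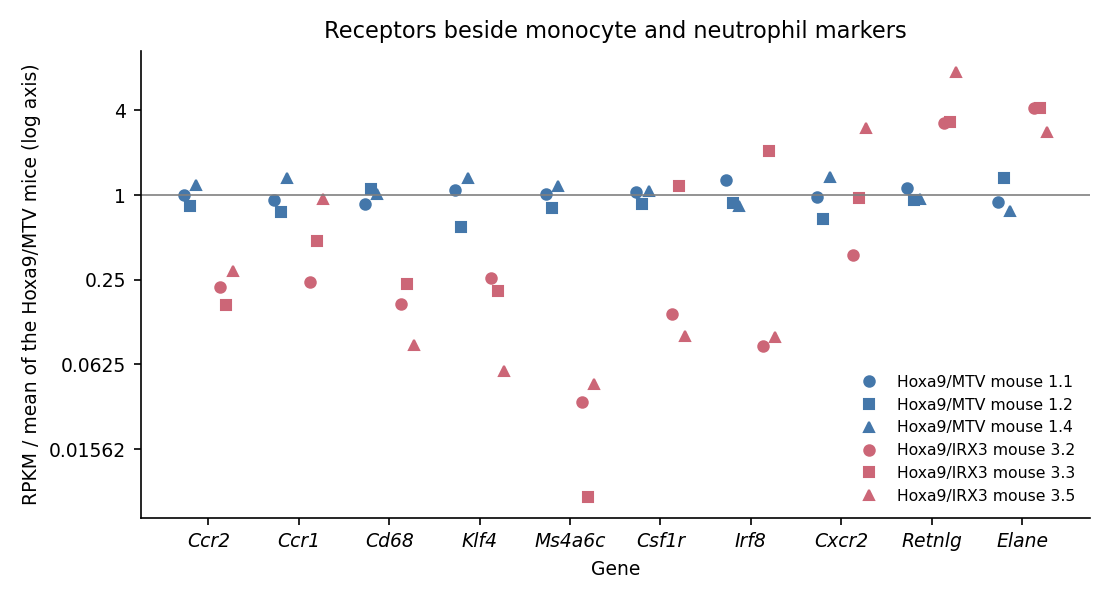
RPKM of *Ccr2*, *Ccr1* and *Cxcr2* and of monocyte (*Cd68*, *Klf4*, *Ms4a6c*, *Csf1r*, *Irf8*) and neutrophil (*Retnlg*, *Elane*) markers in each mouse, divided by the mean of the *Hoxa9*/MTV mice, on a log axis. All 3 *Hoxa9*/*IRX3* mice lie below 1 for *Ccr2*, as for *Cd68*, *Klf4* and *Ms4a6c*, whereas mouse 3.3 lies above 1 for *Csf1r* and *Irf8*, and *Cxcr2* is spread on both sides.

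Neutrophil markers were read beside *Cxcr2*. All 14 neutrophil and granule genes were tested, 2 were called higher and 0 lower, beside 1.1% and 2.03% of all tested genes, and the median log2 change was 0.70. *Elane*, neutrophil elastase of primary granules, rose from 715, 1053 and 614 RPKM to 3324, 3332 and 2237 RPKM (limma adjusted p = 0.0144), and *Retnlg*, a resistin-like protein of neutrophils, from 1.32, 1.08 and 1.09 RPKM to 3.82, 3.88 and 8.75 RPKM (limma adjusted p = 0.0285). The *Elane* call did not hold without mouse 1.1 or 1.4 (limma adjusted p = 0.0722 and 0.0745), nor the *Retnlg* call without any 1 of the *Hoxa9*/MTV mice (0.103 to 0.125). With no filter both calls were lost (limma adjusted p = 0.107 for *Elane* and 0.0636 for *Retnlg*), and *Retnlg* was not called with all gene types (0.0503), by limma voom (0.0797) or by the study's criterion (unadjusted p = 0.0574). The summed RPKM of the list was 2794 to 4229 in *Hoxa9*/MTV mice and 5677 to 7006 in *Hoxa9*/*IRX3* mice. The gap rests on *Elane*, without which the sums of the cohorts overlap. Of the 14 changes, 11 were above 0 and 3 below. Mouse 3.5, with the highest *Cxcr2*, had the highest sum, and mouse 3.2, with the lowest *Cxcr2*, the next highest.

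Markers of other cells that a sort could hold were also read. The calls in these lists stand beside 2.03% of all tested genes called lower and 1.1% called higher. Of 14 dendritic cell genes, 6 were tested and 1, *Flt3*, was called lower (0.999, 0.604 and 0.883 RPKM against 0.0016, 0.0249 and 0.0252 RPKM, limma adjusted p = 0.0102, lost without mouse 1.1 or 1.4 at 0.0680 and 0.0820 and at a pseudocount of 1 with a log2 change of -0.84), with a summed RPKM of 13.2 to 15.6 and 10.5 to 15.8. Of 12 T and NK cell genes, 1 was tested and 0 were called by limma, limma voom or at an unadjusted p under 0.05, with *Cd3d*, *Trac*, *Ncr1* and *Gzma* at 0 in every mouse. *Cd3e*, *Cd4* and *Cd2* were read in *Hoxa9*/MTV mice 1.1 and 1.4, which gave most *Cxcr3* reads, and *Cd3g* and *Cd8a* in mouse 1.1. *Cd2* was also read in mouse 3.3, and none of these values was over 0.0197 RPKM. *Lck* went the other way, at 0.0134, 0.00952 and 0.0163 RPKM in *Hoxa9*/MTV mice and 0.0223, 0.0524 and 0.0743 RPKM in mice 3.2, 3.3 and 3.5. *Klrb1c* was highest in mice 1.2 and 3.5, at 0.0337 and 0.0350 RPKM. Nearly all of that list's sum of 22.7 to 33.0 RPKM in *Hoxa9*/MTV mice and 100, 14.9 and 482 RPKM in mice 3.2, 3.3 and 3.5 was *Nkg7*, a granule protein gene. *Cxcr3* and *Ccr7*, receptors of lymphocytes, had few or no reads, and whether such cells gave them was not tested. Of 8 B cell genes, 3 were tested and 1, *Cd79b*, was called lower (6.11, 7.07 and 7.01 RPKM against 0.330, 0.149 and 2.31 RPKM, limma adjusted p = 0.0383, a call that held without mouse 3.5 and was lost without any other single mouse and in 5 other alternatives at 0.0501 to 0.0847), with *Ms4a1* and *Pax5* at 0. The other tested genes of this list, *Vpreb1* and the surrogate light chain gene *Igll1*, were higher without overlap and not called. Their log2 changes were 1.08 and 3.92 (limma adjusted p = 0.272 and 0.0776), and *Igll1* was called higher in 3 alternatives. The median log2 change of the list was 1.08. The sum of the B cell list was 6.45 to 7.33 RPKM in *Hoxa9*/MTV mice and 2.01, 9.76 and 43.4 RPKM in mice 3.2, 3.3 and 3.5. In those 3 mice *Igll1* gave 1.19, 9.11 and 38.4 RPKM. Of 9 eosinophil, basophil and mast cell genes in the table, 5 were tested and 2 were called lower, the mast cell protease gene *Cpa3* (limma adjusted p = 0.0432) and the transcription factor gene *Gata2* (limma adjusted p = 0.0166), and the sum was 16.2 to 22.2 and 4.84 to 8.02 RPKM. In this list *Ms4a2* was higher without overlap and not called (log2 change 0.66, limma adjusted p = 0.103). *Cpa3* was called only without mouse 1.2 among the mice left out and was lost in 6 other alternatives (limma adjusted p = 0.0530 to 0.0950), and *Gata2* not without any 1 of the *Hoxa9*/MTV mice (limma adjusted p = 0.0586 to 0.0857). Of 12 erythroid and megakaryocyte genes, 2 were tested and 0 were called by limma, limma voom or at an unadjusted p under 0.05, with *Hba-a1*, *Hba-a2* and *Hbb-bt* at 0. The part of these cells in the receptor values was not tested.

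Of the 9 genes, 5 lie on chromosome 9, 2 on chromosome 1 and the others on chromosomes 11 and X. *Ccr1* and *Ccr2* start 133 kb apart. Of the 6 protein-coding genes within 250 kb of *Ccr2*, 2 were tested, *Ccr1* and *2010315B03Rik*, and neither was called by limma or limma voom or had an unadjusted p under 0.05. Around *Ccr1*, 3 of 9 were tested and *Ccr2* was the 1 called. Around *Cxcr4* and *Cxcr2*, 2 of 2 and 5 of 12 protein-coding genes were tested and 0 were called by limma, with 0 and 1 at an unadjusted p under 0.05 and 0 and 1 called by limma voom. Around the untested *Ccr7*, 7 of 15 genes were tested and *Tns4*, a focal adhesion gene, was called lower (1.79, 1.69 and 2.28 RPKM against 0.119, 0.570 and 0.228 RPKM, limma adjusted p = 0.0153), though not without any 1 of the *Hoxa9*/MTV mice (0.0711 to 0.0857).

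The pattern of *Ccr2* over the 6 mice was set beside that of the 9521 other tested genes, by the root mean square difference in log2(RPKM + 0.5) after each gene was centred on its mean. The genes closest to it were *Atp8b2* (difference 0.17), a membrane lipid flippase, *Tespa1* (0.18), a gene of thymocyte receptor signaling, and *5430435G22Rik* (0.23). *Atp8b2* was read at 2.21, 1.97 and 2.28 RPKM in *Hoxa9*/MTV mice and 0.103, 0.0297 and 0.141 RPKM in *Hoxa9*/*IRX3* mice, with mouse 3.3 lowest, as for *Ccr2*. *Tespa1* was at 2.65, 2.92 and 3.30 RPKM and 0.187, 0.0282 and 0.624 RPKM, and *5430435G22Rik* at 2.57, 2.80 and 2.60 RPKM and 0.506, 0.198 and 0.576 RPKM. This likeness rests on the pseudocount of 0.5, since by mean RPKM the falls were 23.6-fold for *Atp8b2*, 10.6-fold for *Tespa1* and 6.22-fold for *5430435G22Rik*, against 4.44-fold for *Ccr2*. At a pseudocount of 0.1 the log2 changes were -3.60, -3.35 and -2.47, against -2.15 for *Ccr2*. None of these was chosen for its function, and likeness over 6 libraries that differ by cohort describes the shared fall and the order of mice only.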

How the data were processed

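Sorted KIT+Gr1+ leukemia cells of 6 mice were compared, 3 per cohort, with the cohort of each mouse taken from the sample labels. Per the labels and the study's methods, the authors prepared strand-specific polyA libraries, sequenced paired ends of 75 bases, aligned them to GRCm38 with Bowtie2 2.2.1, which does not split reads over introns, used SAMtools 0.1.19 to drop alignments below a Phred quality of 20 and assigned reads to Ensembl v76 genes. They deposited 1 table of RPKM per gene and mouse. Reads lost at exon junctions, intronic reads and the division by the whole span make RPKM low for genes with long introns. No column of values was left unused.

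GENCODE M21 gave positions, types and lengths for 40254 of 41128 genes. Reads behind each RPKM were recovered from the steps between values of single genes and came out whole (to 0.01 of a read) in every library for 65.0% of tested genes. For *Ccr1*, *Ccr9*, *Ccrl2* and *Cx3cr1* they rest on the length implied by the values. Floors of 3 reads and intervals on reads cover counting error only. Protein-coding genes over 0.5 RPKM in at least 1 mouse were tested with limma 3.58.1 (R 4.3.3, lmFit and trended eBayes) after a log2(RPKM + 0.5) transformation, adjusting p-values by Benjamini-Hochberg for all 9522 genes, and single ratios with an exact permutation test in scipy 1.17.1. A fold change on the log2(RPKM + 0.5) scale understates the change of low genes. The fit was tested on simulated data.

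The receptors and gene lists were chosen with earlier results of these data known. Named genes were all 9 receptors, genes of each list past both limits, every tested gene of the other chemokine receptors and of the sort markers, called genes within 250 kb of a receptor and the 3 genes closest in pattern to a called receptor. *Ccr1l1*, *Ccl2*, *Ccl3*, *Ccl7*, *Ccl8*, *Ccl12*, *Ccl9*, *Cxcl10*, *Cxcl12*, *Csf1r*, *Irf8*, *Nkg7*, *Igll1* and *2010315B03Rik* were added after their values were seen. So were *Csrnp1*, *Vpreb1*, *Ms4a2*, *Prex1*, *Pik3r6*, *Cd2*, *Cd3e*, *Cd3g*, *Cd4*, *Cd8a*, *Lck*, *Klrb1c* and *S1pr4*. Alternatives were pseudocounts of 0.1 and 1, other filters, scalings and tests, and leaving out each mouse. After the data had been seen, 3 more were added: testing every gene type, dividing by exon length, and limma voom on recovered reads. Some genes of the lists are not reported here.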

Additional observations from a re-analysis of the deposited data

How the results depend on the processing

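*Ccr2* was lower in *Hoxa9*/*IRX3* leukemias under all 19 alternatives and was called in 17. Leaving out each mouse in turn gave log2 changes of -2.25 to -1.88, and 0 to 1 receptors called by limma. At an unadjusted p under 0.05 limma gave 1 of the 5 tested receptors, as did limma voom by its calls. *Ccr1* and *Cxcr4* kept a negative sign in all 19 alternatives and were called in 0, with limma adjusted p from 0.0866 to 0.531 and from 0.351 to 0.843. *Ccrl2* changed sign at a pseudocount of 0.1 (-0.01), with sample weights (-0.05) and with limma voom (-0.05), and ranged from -0.39 to 0.23 without each mouse in turn. *Cxcr2* changed sign with sample weights (-0.01) and ranged from -0.56 to 0.74 without each mouse. The number of all tested genes called was 298, and became 175 with no filter, 664 under the study's criterion of an unadjusted p and a ratio of means over 2, 552 with exon length, 522 with limma voom and 61 to 415 without each mouse in turn. The fits that leave out a *Hoxa9*/MTV mouse called the fewest genes (61 to 76), and the cause was not tested. Of the 17 genes outside the set that were named as called, 0 changed sign in any alternative, 4 were called without each mouse in turn and 9 were called in every other alternative. No paired analysis was possible because the mouse numbers are not shared between cohorts. Depth limits *Ccr7*, *Ccr9* and *Cxcr3*, and overlap with other genes limits *Cx3cr1*. The fits that included *Ccr9*, *Cxcr3* or *Cx3cr1* called 0 of them (limma adjusted p 0.150 to 0.792).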
